A study of Homo sapiens with 8 samples.

Results

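IL11 and 9 further cytokine genes that keratinocytes are known to make (IL6, LIF, IL1A, IL1B, IL18, CXCL8, CXCL1, CXCL2 and CCL20) were followed in A431 cells that had received miR-634, in total RNA and in RNA bound to AGO2. They are 10 of the 22439 genes with a probe that could be matched to a symbol. The genes were chosen by name, and every probe of each was examined, 14 in all. IL11 was picked because its total RNA rose, so its total RNA and every ratio that contains it are given for IL11 as a description without a test.

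A431 is a human cutaneous squamous cell carcinoma (cSCC) line of keratinocyte origin, and here it stands for a single cultured line without stroma or leukocytes. Cells received the control miR-NC or miR-634 at 10 nM and were analyzed 24 h later by RIP-chip, in which AGO2 is precipitated with an antibody and the RNA that comes with it is hybridized to an array. Input and RIP were each hybridized for the miR-NC cells and for the miR-634 cells, which gives 4 groups with 2 one-color Agilent arrays apiece, and no group was left untransfected. The methods call the input total RNA, whereas the labels name a normal rabbit IgG antibody for these arrays, and they are treated as input here. Neither source says whether the duplicates were separate transfections, so p-values measure the spread between these arrays, which may be technical. With 2 arrays a group, the precision of each value is limited.

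A miRNA is loaded into AGO2 and guides it to mRNAs that pair with its seed, which usually lowers the mRNA, its translation or both, while the paired mRNA can be recovered with AGO2. IL-11, IL-6 and LIF are secreted ligands of the IL-6 family, which share the signaling receptor gp130 (encoded by IL6ST) and act through JAK kinases and STAT3. IL-1α and IL-1β are alarm cytokines of the epidermis, IL-18 belongs to the same family, and CXCL1, CXCL2, CXCL8 and CCL20 are chemokines that draw neutrophils or, for CCL20, CCR6-positive lymphocytes and dendritic cells. The mRNAs of many of these cytokines are short-lived and are induced through NF-κB and AP-1.

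The mature miR-634 sequence is shown because it is the agent whose seed would pair with AGO2-bound targets. It comes from RefSeq (GRCh38.p14, chr17:66787132-66787153, plus strand), and the capitals mark the seed, bases 2 to 8. No transcript sequence was used here, so sites for this seed in the cytokine mRNAs were not sought.
hsa-miR-634: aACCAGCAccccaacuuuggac

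Levels are given as a percent of the 75th percentile of the same array, taken over probes well above background on every array, and changes as differences of log2 levels ± standard error (SE). Between 45.6% and 45.8% of spots were well above background on the input arrays, 33.6% and 34.5% of them in miR-NC RIP, and 40.0% in both miR-634 RIP hybridizations. The 75th percentile itself lay between 2674 and 2949 intensity units for input, at 714 and 670 for miR-NC RIP and at 1375 and 1329 for miR-634 RIP. The RIP groups therefore differed in overall signal, and its part in the RIP results was not tested. All 8 arrays were on 1 slide in 1 scan. All 10 keratinocyte markers examined, KRT5, KRT14, KRT6A, KRT17, KRT16, TP63, CDH1, EGFR, SFN and DSP, were well above background on all arrays. In input, 5 of them rose with miR-634 by 0.25 to 0.39 (KRT6A, KRT16, TP63, EGFR and DSP) and CDH1, which encodes E-cadherin, fell by 1.02 (log2). Of all genes, 11.6% rose and 12.1% fell in input. With the arrays scaled by spike-in probes instead, none of the 10 markers was called higher in input and 1 was called lower. Of the markers of other cells, CD14, VWF and CDH5 were well above background on all arrays. PTPRC, CD3E, MS4A1, PECAM1 and all fibroblast and melanocyte markers were not, and CD68 and LYZ had no matched probe. Some of these passed on fewer arrays. LUM did so on 7 arrays and PMEL on 6, with all 4 input arrays among them. A PDGFRB probe passed on 6 arrays and a PTPRC probe on 4. CD14 fell by 0.31 in input (log2, adjusted p = 0.0106) and by 1.26 in RIP, and its part in the cytokine results was not tested.

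A gene was tested if at least 1 of its probes stood well above background on each of the 8 arrays, which 10959 genes met, 7 of the 10 cytokine genes among them. These were IL11, LIF, IL1A, IL1B, IL18, CXCL1 and CXCL2. IL6, CXCL8 and CCL20 did not meet it and are described separately. In total RNA, 3 of the 6 cytokine genes other than IL11 rose (LIF, CXCL1 and IL1A) and none fell, against 23.7% of all genes called in either direction, 11.6% higher and 12.1% lower. In AGO2-bound RNA, IL11, LIF and IL1B rose and CXCL2 and IL1A fell, so that 5 of 7 were called against 77.4% of all genes (30.9% higher and 46.5% lower). The share of cytokine genes called in RIP was thus no higher than that of all genes. Enrichment in AGO2-bound over total RNA was called for 5 of the 6 genes other than IL11 with miR-NC, against 78.8% of all genes (33.5% higher and 45.3% lower). With miR-634 it was again called for 5 of 6, against 84.4% (36.1% higher and 48.3% lower). The fold change of enrichment, which is the enrichment with miR-634 over that with miR-NC, was called for 3 of 6 (LIF higher, CXCL2 and IL1A lower), against 71.3% of all genes. The median input change of the 6 genes other than IL11 was 0.24 (log2), beside -0.01 for all genes, and the median RIP change of the 7 genes was 0.14, beside -0.18.

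**Figure D1:**
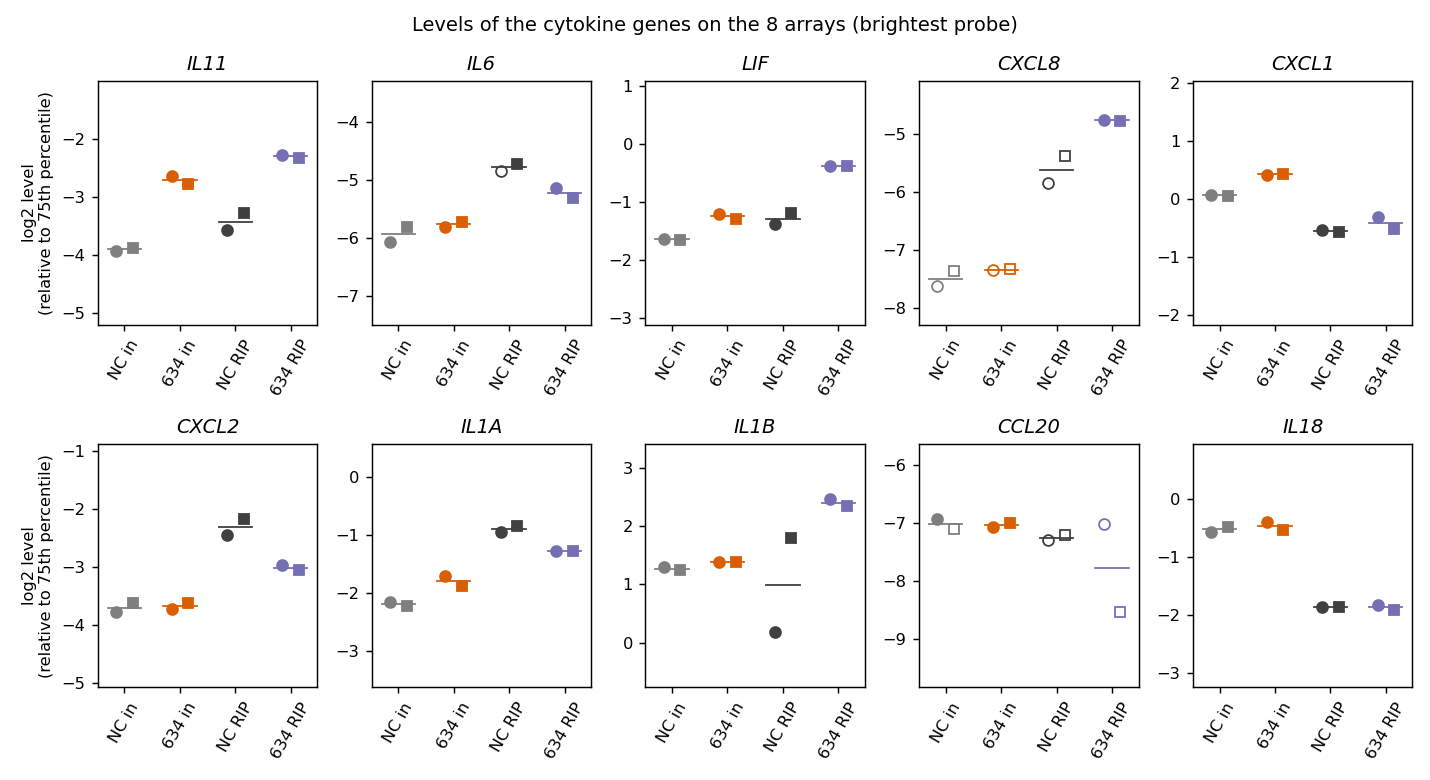
Levels of the 10 cytokine genes on the 8 arrays (brightest probe of each gene), as log2 of the level relative to the array's 75th percentile; every panel spans the same range. Circles are the arrays numbered 1, squares those numbered 2, lines the group means, and open symbols mark spots not well above background. IL11 and LIF stood higher with miR-634 in input and in RIP, and the miR-NC RIP arrays lay farthest apart for IL1B.

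IL11 encodes a gp130 ligand of the IL-6 family. Its probe (NM_000641) read 6.54% and 6.80% of the 75th percentile on the miR-NC input arrays and 16.0% and 14.6% on the miR-634 input arrays. In RIP, it read 8.39% and 10.3% with miR-NC and 20.6% and 19.9% with miR-634. Every miR-634 array thus stood above every miR-NC array of the same kind. The input change, for which IL11 was picked, was 1.20 ± 0.10 on the log2 scale, or 2.29-fold, the 3rd highest of the 10959 measured genes. In bulk RNA of a culture, more cells that express the gene and more RNA per cell cannot be told apart. The RIP change used none of those input arrays, but it is not independent of the choice of IL11. RIP and input are RNA of cells given the same treatment, so a gene picked for its total RNA may rise in both. The change in RIP was 1.12 ± 0.10 (2.18-fold, limma adjusted p = 7.4e-05), in a comparison in which 77.4% of all genes were called. It stood at percentile 90.3 of all genes, with 2.46-fold in the arrays numbered 1 and 1.93-fold in those numbered 2. The enrichment, which is the RIP level over the input level, was 1.39-fold with miR-NC and 1.32-fold with miR-634. Its fold change between the cells was -0.07 ± 0.14 (log2). With the arrays scaled by spike-in probes instead, the IL11 input change was 0.97, the RIP change 1.99 and the fold change of enrichment 1.02, so whether RIP rose by more than input depended on the scaling.

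LIF, a gp130 ligand that signals through LIFR, changed in both kinds of RNA. Its bright probe (NM_002309) read 32.4% and 31.9% on the miR-NC input arrays and 43.7% and 41.1% on the miR-634 input arrays. The RIP arrays gave 38.6% and 43.8% with miR-NC and 77.0% and 77.4% with miR-634. The groups did not overlap in either kind of RNA. Total LIF RNA rose 1.32-fold (log2 0.40 ± 0.07, adjusted p = 0.0101), and AGO2-bound LIF RNA rose 1.88-fold (0.91 ± 0.07, adjusted p = 3.4e-05). LIF was enriched 1.28-fold in miR-NC cells (adjusted p = 0.00291) and 1.82-fold in miR-634 cells (adjusted p = 2.6e-05). The fold change of enrichment was 0.51 ± 0.10 (log2, adjusted p = 0.00346), a direction in which 28.1% of all genes were called, with 43.2% called lower. The input call was lost without miR-634 input array 1 or without either miR-NC input array (adjusted p from 0.0602 to 0.0662). A second LIF probe was well above background on 3 of 8 arrays, both miR-634 RIP arrays and 1 miR-634 input array, and no fold is given for it.

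IL1A, which encodes IL-1α, moved in opposite directions in total and AGO2-bound RNA with the 75th percentile scaling. Its probe (NM_000575) read 22.3% and 21.5% with miR-NC and 30.7% and 27.0% with miR-634 in input. In RIP it read 51.5% and 55.8% with miR-NC and 41.3% and 41.2% with miR-634. The miR-634 arrays were the higher ones in input and the lower ones in RIP, without overlap. Total IL1A RNA rose 1.32-fold (log2 0.39 ± 0.07, adjusted p = 0.0135), whereas the AGO2-bound RNA fell 1.30-fold (log2 -0.38 ± 0.07, adjusted p = 0.00325). Enrichment was 2.45-fold in miR-NC cells and 1.43-fold in miR-634 cells, and its fold change was -0.77 ± 0.11 (log2, adjusted p = 0.000724). The input call was lost without miR-634 input array 1 or without either miR-NC input array (adjusted p from 0.062 to 0.08). With the 75th percentile taken over all probes, the RIP change was -0.21 and was not called (adjusted p = 0.0962), and the authors' values gave nearly the same (adjusted p = 0.0942). With the arrays scaled by spike-in probes, the RIP change was 0.49 (adjusted p = 0.0255) and the input change 0.17 (adjusted p = 0.616), so the directions were then the same.

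IL1B encodes IL-1β, which is secreted after cleavage by caspase-1. Its probe (NM_000576) read 247% and 236% in miR-NC input and 263% and 261% in miR-634 input. The RIP arrays read 114% and 350% with miR-NC and 553% and 510% with miR-634. The pair of miR-NC RIP arrays differed by more than any other pair for this gene, with a log2 SD of 1.15 against 0.08 in miR-634 RIP, and both lay below the miR-634 RIP arrays. The input change was 0.12 ± 0.46 (log2, adjusted p = 0.886). This SE is shared by the 4 groups and carries the spread of the miR-NC RIP pair. The input pairs themselves had a log2 SD of 0.05 with miR-NC and 0.009 with miR-634. The RIP change was 1.41 ± 0.46 (2.66-fold, adjusted p = 0.0273). This call was lost without miR-634 RIP array 1 (adjusted p = 0.097) or array 2 (adjusted p = 0.0781), and the change was 0.60 without miR-NC RIP array 1 and 2.22 without miR-NC RIP array 2. The fold change of enrichment, 1.30 ± 0.65, did not pass the test (adjusted p = 0.115), but was called at 0.49 without miR-NC RIP array 1 and at 2.11 without miR-NC RIP array 2.

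IL18 encodes a cytokine that keratinocytes store as a precursor. Its probe (NM_001562) read 67.9% and 71.9% in miR-NC input and 76.7% and 69.7% in miR-634 input. The RIP levels were 27.6% on both miR-NC arrays and 28.3% and 26.8% with miR-634. The miR-634 and miR-NC arrays overlapped in both kinds of RNA. Neither the input change (log2 0.07 ± 0.06, adjusted p = 0.503) nor the RIP change (log2 -0.00 ± 0.06, adjusted p = 0.95) passed the test. RIP was below input 2.53-fold in miR-NC cells and 2.66-fold in miR-634 cells, at percentile 3.4 and percentile 9.0 of all genes.

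CXCL1 and CXCL2 encode closely related neutrophil chemokines that bind CXCR2, and whether each probe tells these similar mRNAs apart was not tested. The bright CXCL1 probe (NM_001511) read 106% and 105% in miR-NC input and 134% and 136% in miR-634 input. In RIP it read 69.4% and 67.5% with miR-NC and 80.8% and 70.3% with miR-634. The input groups were well apart, and the RIP groups were separated by less than the spread of the miR-634 RIP arrays. Total CXCL1 RNA rose 1.28-fold (log2 0.36 ± 0.07, adjusted p = 0.0151). The RIP change was 0.14 ± 0.07 (log2, adjusted p = 0.116), and the fold change of enrichment was -0.22 ± 0.10 (adjusted p = 0.0856). The second CXCL1 probe gave 0.33 in input (adjusted p = 0.00947 over all probes), -0.08 in RIP (adjusted p = 0.202) and -0.41 in the fold change of enrichment (adjusted p = 0.00274). The input call of the bright probe was lost without any 1 of the 4 input arrays (adjusted p from 0.0724 to 0.085).

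The CXCL2 probe that was brighter on average over the 8 arrays (NM_002089) read 7.27% and 8.08% in miR-NC input and 7.57% and 8.16% in miR-634 input. It read 18.3% and 22.2% in miR-NC RIP and 12.8% and 12.01% in miR-634 RIP. The input groups overlapped, and the RIP groups did not. The input change was 0.04 ± 0.11 (log2, adjusted p = 0.841), whereas AGO2-bound CXCL2 RNA fell 1.62-fold (log2 -0.70 ± 0.11, adjusted p = 0.000902). CXCL2 was enriched 2.62-fold in miR-NC cells and 1.58-fold in miR-634 cells, and the fold change of enrichment was -0.74 ± 0.15 (adjusted p = 0.00434). The second CXCL2 probe gave smaller values in the same direction for RIP (-0.21, adjusted p = 0.0326 over all probes) and for the fold change of enrichment (-0.48, adjusted p = 0.00541). In input it rose by 0.27 (adjusted p = 0.0465), so the probes of CXCL2 disagreed on whether total RNA passed the test.

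**Figure D2:**
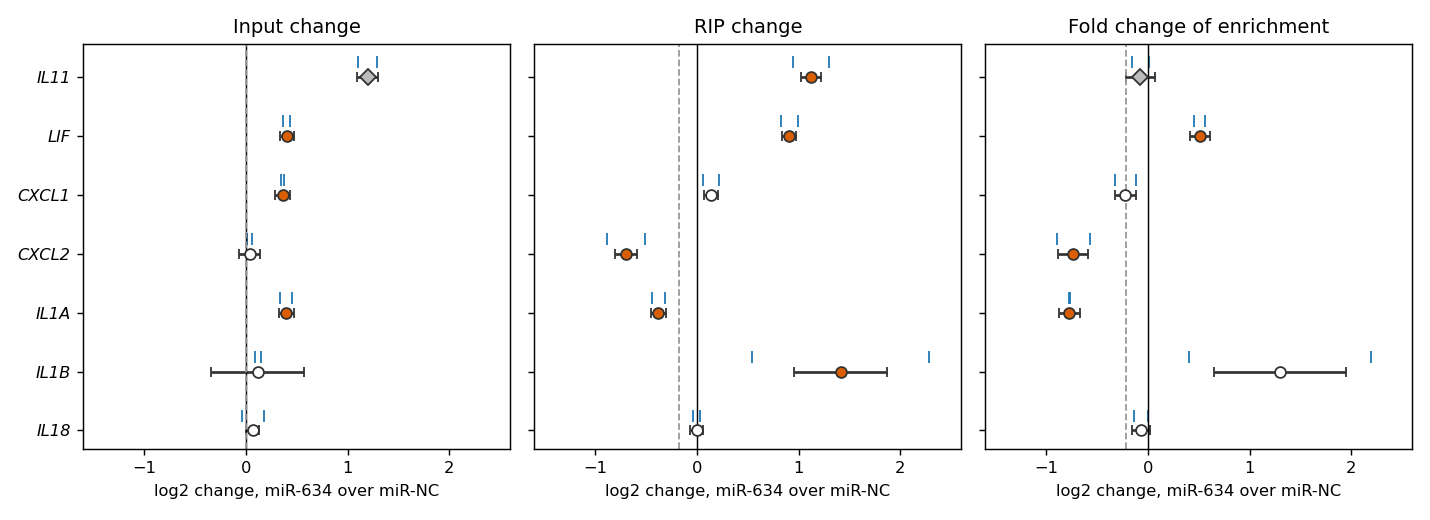
Log2 change of the 7 measured cytokine genes, miR-634 over miR-NC, in input, in RIP and in enrichment (RIP over input). Filled circles were called by limma (adjusted p under 0.05), open circles were not, grey diamonds are IL11 values given without a test, bars are the SE, blue ticks are the values of the arrays numbered 1 and 2, and dashed lines are the medians of all genes. LIF lay above 0 in all 3 panels, IL1A lay above 0 in input and below 0 in RIP, and with spike-in scaling IL1A and CXCL2 lay above 0 in RIP and in the fold change of enrichment.

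The signs of RIP against input depended on how the arrays were scaled. With the arrays shifted by their 8 spike-in probes instead, the change of the median gene was -0.23 in input, 0.68 in RIP and 0.88 in the fold change of enrichment (log2), and enrichment of the median gene was -2.69 with miR-NC and -1.65 with miR-634. Of all genes, 66.2% were then called higher and 3.25% lower in RIP, 0.228% higher and 6.94% lower in input, and 65.9% higher and 1.63% lower in the fold change of enrichment. Under this scaling none of the 6 tested cytokine genes passed the test in input, where IL11 was not tested. In RIP, IL11 (1.99), LIF (1.77), IL1B (2.28), CXCL1 (1.002), IL18 (0.86) and IL1A (0.49) were called higher, and CXCL2 (0.16) was not called. A scaling shifts all genes of an array together, so differences from the median gene are the same under both. Relative to the median gene, the RIP change was 1.30 for IL11, 1.09 for LIF, 1.59 for IL1B, 0.32 for CXCL1, 0.18 for IL18, -0.20 for IL1A and -0.52 for CXCL2. The fold change of enrichment relative to the median gene was 0.14 for IL11, 0.72 for LIF, -0.56 for IL1A and -0.52 for CXCL2.

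**Figure D3:**
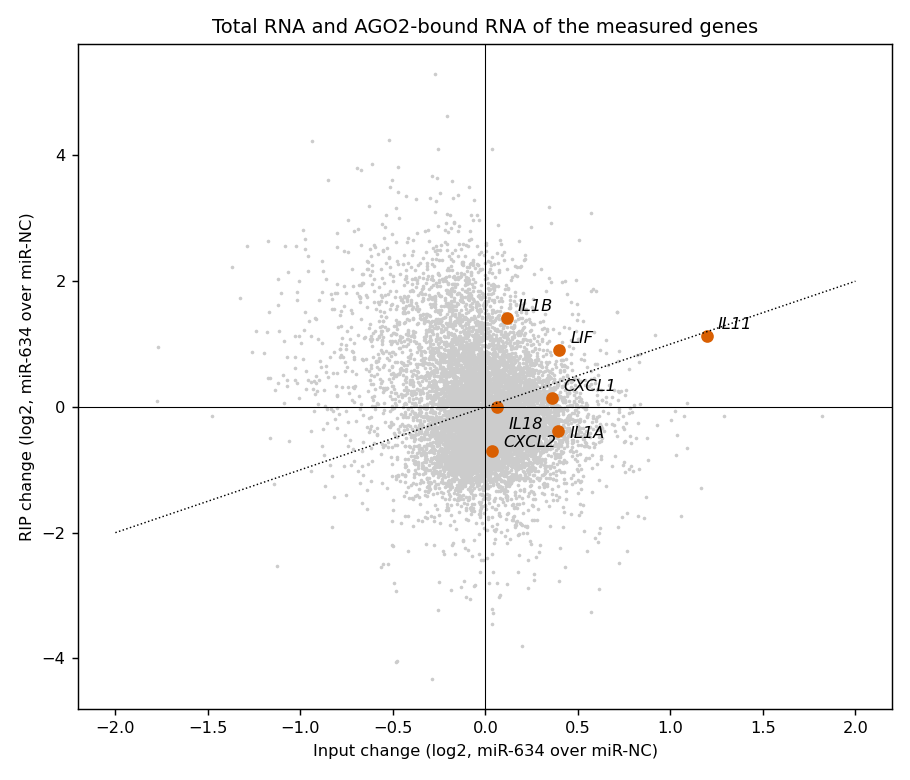
Input change against RIP change (log2, miR-634 over miR-NC) of the 10959 measured genes (grey) and the 7 measured cytokine genes (orange); the dotted line marks equal changes. IL11 lies near that line at 1.20 and 1.12 (with spike-in scaling its values are 0.97 and 1.99), LIF and IL1B lie above it, and CXCL2 and IL1A lie below it.

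The other members were too dim for the test. IL6 encodes the founding cytokine of its family. Its probe for NM_000600 was well above background on 7 of 8 arrays, all but miR-NC RIP array 1. It read 1.48% and 1.78% in miR-NC input, 1.77% and 1.89% in miR-634 input, 3.46% and 3.78% in miR-NC RIP and 2.83% and 2.51% in miR-634 RIP. The input groups overlapped, and the RIP groups did not. With the requirement set on the input arrays only, the IL6 input change was 0.17 ± 0.11 (log2, adjusted p = 0.379 over 13663 genes). AGO2-bound IL6 RNA was lower by a log2 change of -0.44 ± 0.11 (adjusted p = 0.0155), in a comparison in which 67.5% of genes were called. IL6 was enriched 2.23-fold with miR-NC (adjusted p = 0.00028, 70.5% of genes called), with 1 of the 2 miR-NC RIP arrays well above background, and 1.46-fold with miR-634 (adjusted p = 0.00543), and its fold change of enrichment was -0.61 ± 0.16 (log2, adjusted p = 0.0191, 59.5% of genes called). Each of these values that uses miR-NC RIP rests in part on a spot near background. A second IL6 probe was not well above background on any array.

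CXCL8, which encodes the neutrophil chemokine IL-8, was well above background on the miR-634 RIP arrays alone. Its probe (NM_000584) read 3.69% and 3.62% there, against 1.73% and 2.39% in miR-NC RIP. Its input readings, none of them well above background, lay between 0.504% and 0.618%. With the 75th percentile scaling, the miR-634 RIP readings of CXCL8 were 1.37-fold above the lowest signal well above background in miR-NC RIP. They were 5.84-fold above the same limit in miR-634 input, with the reading itself used where it was higher. This limit is no strict bound, because the IL6 probe read 3.46% on miR-NC RIP array 1 and was not well above background there. The CXCL8 probe passed only in the group where it was brightest, so no change was tested. CCL20, the ligand of CCR6, was well above background on both miR-634 input arrays, 1 of 2 miR-NC input arrays and no RIP array. Its probe (NM_004591) read 0.82% and 0.724% in miR-NC input and 0.741% and 0.781% in miR-634 input, so the groups overlapped.

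Stretches of the promoters are shown because they hold letters of the AP-1 or NF-κB motif, the factors through which such genes are commonly induced. RefSeq promoter sequences (GRCh38.p14) matched 8 of the 10 genes, all but LIF and IL18, and were searched on both strands for TGANTCA (AP-1) and GGNNTTTCC (NF-κB). The AP-1 letters occurred in 3 of the 8 genes (IL11, CXCL8 and IL1A) and in 7.71% of 35116 promoters of the same length, and the NF-κB letters occurred in 5 of 8 (IL6, CXCL8, CXCL1, CXCL2 and CCL20) and in 6.26%. The AP-1 letters read the same on both strands, and the motifs did not overlap each other. Windows of 30 bases are given on the strand of the gene, with the motif in capitals.
IL11 AP-1 (chr19:55370541-55370570, minus strand): ggcagggagggTGAGTCAggatgtgtcagg
IL1A AP-1 (chr2:112784487-112784516, minus strand): gcgaagaagacTGACTCAggcttaagctgc
CXCL8 AP-1 (chr4:73740421-73740450, plus strand): aggaagtgtgaTGACTCAggtttgccctga
CXCL8 NF-κB (chr4:73740468-73740497, plus strand): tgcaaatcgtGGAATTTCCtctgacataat
IL6 NF-κB (chr7:22727118-22727147, plus strand): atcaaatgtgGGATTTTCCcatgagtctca
CXCL1 NF-κB (chr4:73869305-73869334, plus strand): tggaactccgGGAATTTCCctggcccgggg
CXCL2 NF-κB (chr4:74099253-74099282, minus strand): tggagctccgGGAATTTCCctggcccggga
The motif lay 96 bases before the start site in IL11, 137 and 91 in CXCL8, 72 in IL6, 78 in CXCL1 and 77 in CXCL2. In IL1A the printed motif lay 12 and 105 bases before the start sites of its 2 RefSeq entries, and the second entry holds another AP-1 match, 55 bases before its start site. CXCL1 and CXCL2 each hold a second NF-κB match 53 bases before the start site, and their printed windows are nearly the same. A match is a run of letters and not a measured binding site.

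The receptors of these cytokines were read from the same fit. IL6ST (gp130), shared by IL-11, IL-6 and LIF, rose in input (log2 0.30, adjusted p = 0.0091) and fell in RIP (-0.62), with a fold change of enrichment of -0.91. OSMR, which pairs with gp130 for oncostatin M, and IL6R, the IL-6 binding chain, rose in RIP (0.70 and 0.54), and their input values were -0.11 and -0.05. IL1RAP, the accessory chain of the IL-1 receptor, rose in input (0.37) and fell in RIP (-0.48), and IL1R1, the binding chain, fell in RIP (-0.62). IL11RA, LIFR and CXCR2 were not well above background on all arrays. Relative to the median gene, 2 of the 5 measured receptors (OSMR and IL6R) stood higher in RIP. In input 2 of the 5 rose and none fell, against 11.6% and 12.1% of all genes. In RIP 2 rose and 3 fell, against 30.9% and 46.5%. With spike-in scaling none was called in input, and in RIP 2 were called higher and none lower, against 66.2% and 3.25% of all genes.

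Genes of the same pathways were taken from lists of known members. With spike-in scaling, no tested gene of any list was called higher in input, where IL11 was not tested. The input rises given here are thus those of the 75th percentile scaling. Of the 9 IL-6 family ligands, IL11, LIF and CLCF1 were measured, and CLCF1, another gp130 ligand, fell in RIP (-1.16) with an input value of 0.13. Among 11 measured IL-6 family receptors and signaling genes, 1 rose and 3 fell in input (all genes 11.6% higher and 12.1% lower), and 5 rose and 4 fell in RIP (all genes 30.9% and 46.5%). With spike-in scaling 7 of them rose and none fell in RIP (all genes 66.2% and 3.25%). The 3 that fell in input were STAT3 (-0.36), the feedback inhibitor SOCS3 (-0.47) and the STAT3 target kinase PIM1 (-0.37), and all 3 rose in RIP (0.27, 0.52 and 0.29). The median of this list was -0.07 in input and 0.02 in RIP, beside -0.01 and -0.18 for all genes. Of the 5 measured IL-1 family ligands and inhibitors, IL1RN, which encodes the receptor antagonist, rose in input (0.27) and fell in RIP (-0.50), as IL1A did. IL36G, an epidermal IL-36 ligand, rose in RIP (1.16), and its input value was -0.28 (adjusted p = 0.0692). Among 9 IL-1 family receptors and signaling genes, IL1RAP and the kinase gene IRAK1 (0.28) rose in input and none fell, against 11.6% and 12.1% of all genes. In RIP 1 rose and 5 fell, against 30.9% and 46.5% (6 rose and none fell with spike-in scaling, against 66.2% and 3.25%).

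Of the 7 measured chemokines among 19, CXCL1 rose and CXCL11 fell in input, against 11.6% and 12.1% of all genes. In RIP 1 rose and 5 fell, against 30.9% and 46.5% (2 rose and none fell with spike-in scaling, against 66.2% and 3.25%). CXCL11, an interferon-induced ligand of CXCR3, fell in input by 1.06 on the log2 scale (adjusted p = 0.00353). CXCL16, a transmembrane chemokine, was the 1 that rose in RIP (1.37, adjusted p = 1.8e-06), with an input value of -0.09. CXCL5, another neutrophil chemokine, fell in RIP (-0.89), as did CCL5 (-1.01) and CCL26 (-0.61). Of the chemokine receptors, CXCR3 (2.02) and CCR6 (0.27) rose in RIP and ACKR3 fell (-0.56), against 30.9% and 46.5% of all genes. With spike-in scaling 2 of these rose and none fell. The CXCR3 value is that of 1 probe, and a second CXCR3 probe was not well above background on any array. None of the 3 measured passed the test in input. Other epithelial cytokines showed 4 that rose and 1 that fell of 9 in input, against 11.6% and 12.1% of all genes. In RIP 4 rose and 3 fell, against 30.9% and 46.5% (6 rose and none fell with spike-in scaling, against 66.2% and 3.25%). VEGFA, the angiogenic factor, rose in input (0.79, adjusted p = 0.00062) without a called RIP change (-0.08), CSF2, which encodes GM-CSF, rose in input (0.67), and IL23A, a subunit of IL-23, rose in input (0.47) and fell in RIP (-0.53). IL15 rose in RIP (2.38) with an input value of -0.52 (adjusted p = 0.0682). TNFSF10, which encodes TRAIL, fell in both (-0.23 and -0.86).

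Among 16 measured NF-κB pathway genes, 9 rose and 1 fell in input, against 11.6% and 12.1% of all genes (none rose and 1 fell with spike-in scaling, against 0.228% and 6.94%). The median of the list was 0.19, and 11 of the 16 stood above the median gene. Of the 16, 6 rose and 6 fell in RIP, against 30.9% and 46.5% of all genes. With spike-in scaling 14 rose and none fell in RIP, against 66.2% and 3.25%. TNFAIP3, the feedback inhibitor A20, rose by 0.51 in input and NFKBIB, an inhibitor of NF-κB, by 0.47. Both fell in RIP (-0.33 and -0.57), but neither was called lower there with spike-in scaling. BIRC3, a regulator of NF-κB signaling, fell in input (-0.57) and rose in RIP (0.32). NFKBIE and IKBKG had the largest RIP rises of the list (2.84-fold and a log2 change of 1.09). Of the 8 AP-1 genes, FOSL1 rose (0.47) and FOS fell (-0.39) in input, near the 11.6% and 12.1% of all genes. In RIP, where 30.9% of all genes rose and 46.5% fell, FOS (1.41) and ATF3 (1.13) rose, whereas JUNB (-0.90), JUN (-0.50), FOSL2 (-0.48) and FOSL1 (-0.19) fell. Spike-in scaling gave 5 that rose and none that fell of the 8 in RIP, against 66.2% and 3.25% of all genes. Among 11 genes for the decay of AU-rich mRNAs, the decay factors ZFP36 (0.29), ZFP36L2 (0.22) and KHSRP (0.30) rose in input and none fell, against 11.6% and 12.1% of all genes. In RIP 2 rose and 8 fell, against 30.9% and 46.5% (7 rose and none fell with spike-in scaling, against 66.2% and 3.25%).

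Of 17 measured interferon response genes, none rose and 5 fell in input, against 11.6% and 12.1% of all genes, with a median of -0.14. IFIT2 (-0.51), OASL (-0.56), OAS2 (-0.43), ISG15 (-0.23) and IFIT1 (-0.20), all interferon-induced antiviral genes, fell. With spike-in scaling, 3 of 17 fell and none rose, against 6.94% and 0.228% of all genes. IFNB1, IFNL1 and IFNL2, which encode interferons, were not well above background on all arrays. In RIP 4 of the 17 rose and 9 fell, near the 30.9% and 46.5% of all genes. Among them STAT2 (1.38) and IFIT2 (0.81) rose and MX1 (-1.40) and IRF1 (-1.30) fell. With spike-in scaling 9 rose and 2 fell in RIP, against 66.2% and 3.25% of all genes.

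**Figure D4:**
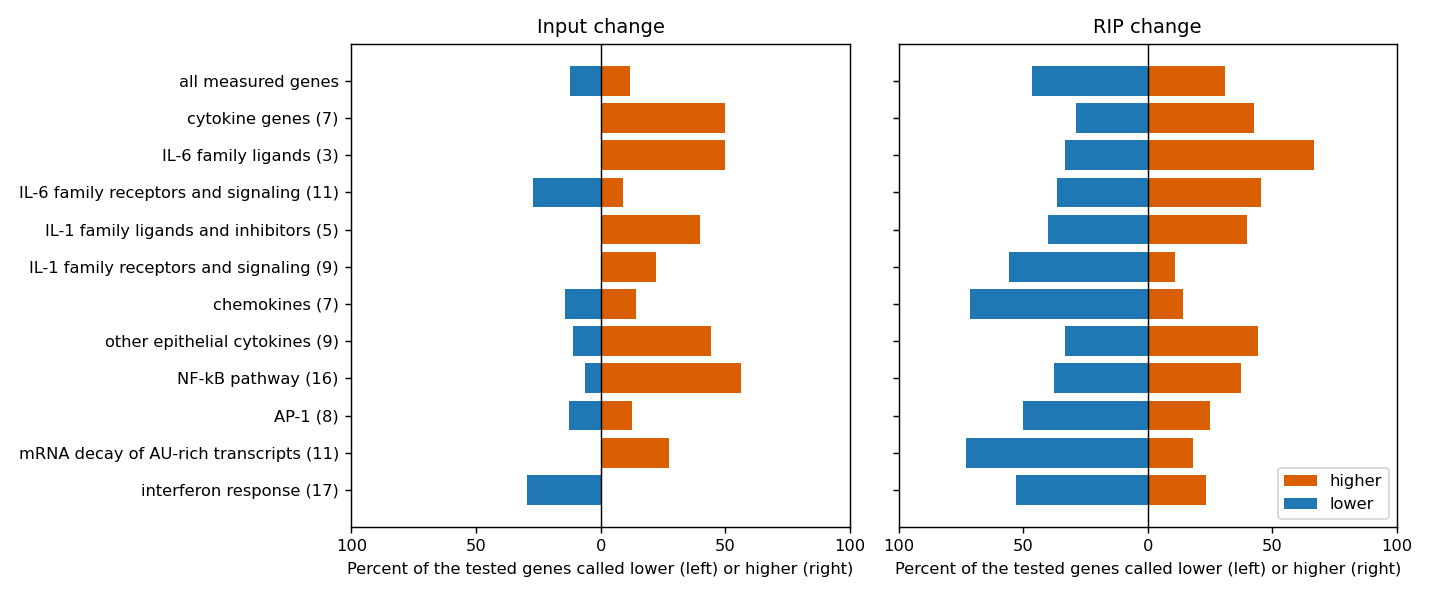
Percent of the tested genes of each list that limma called lower (blue, left) or higher (orange, right) with miR-634 in input and in RIP, with the number of measured genes in parentheses and IL11 left out of the input panel. In input the NF-κB genes lay mostly to the right and the interferon response genes only to the left; with spike-in scaling no NF-κB gene was called higher in input, and in RIP most calls lay to the right.

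The profile of IL11 over the 8 arrays was compared with that of every measured gene. The 5 genes most like it by Pearson correlation of log2 levels were PPP1R15A (r = 0.991), ZNF114 (r = 0.989), RELL2 (r = 0.989), VPS26B (r = 0.985) and SPIRE2 (r = 0.969). The 8 points form 4 groups and share the same RNA and scaling, so these values describe likeness and nothing more. PPP1R15A, which encodes the phosphatase subunit GADD34 of the stress response, read 12.4% and 12.7% in miR-NC input and 22.6% and 22.3% in miR-634 input. The RIP arrays gave 16.1% and 16.3% with miR-NC and 29.0% and 29.4% with miR-634. As with IL11, the higher values were those with miR-634 in both kinds of RNA, and the RIP level was above the input level in both kinds of cells. Among the cytokine genes, LIF was the most like IL11 (r = 0.883, rank 70 of 10959), followed by IL1B (r = 0.682), IL1A (r = 0.352), CXCL2 (r = 0.07), CXCL1 (r = -0.03) and IL18 (r = -0.33).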

How the data were processed

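For each of the 8 RIP-chip arrays, the authors deposited the intensity of every spot after background correction in Agilent Feature Extraction (version 9.1 in the submitters' notes), with arrays not normalized to each other. Their GeneSpring log2 values, also deposited, served as an alternative here. Control and outlier spots were removed, log2 was taken, and the 75th percentile over the 16808 of 58201 probes (28.9%) well above background on all arrays was subtracted. RefSeq symbols (GRCh38.p14) were found for 31104 of 33080 probes with an accession, and the brightest passing probe stood for a gene. limma 3.58.1 (R 4.3.3; lmFit on the 4 group means, eBayes) was run over 10959 genes, with p-values adjusted by Benjamini-Hochberg and called under 0.05. Besides the cytokine genes, their receptors and the 5 genes most like IL11, up to 3 genes per list and comparison were named by lowest adjusted p (genes beyond this rule were added with their values known). The members and lists were chosen with earlier results of these data known. The 14 alternatives concern background correction, scaling, filters, probes, variance, the block, arrays left out and the methods' t-test. Scripts were tested on simulated data. Plots were drawn in matplotlib 3.10.9 (Python 3.11.15).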

Additional observations from a re-analysis of the deposited data

Results flagged for a closer look

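For 3 cytokine genes, the change with miR-634 differed between AGO2-bound and total RNA by a test of the difference itself (limma, adjusted p under 0.05, as for 71.3% of all genes). The fold change of enrichment was 0.51 for LIF, -0.74 for CXCL2 and -0.77 for IL1A (log2). Each had the same sign in the arrays numbered 1 and those numbered 2, but the numbers do not pair the arrays, so these are not replicate estimates. With spike-in scaling, CXCL2 and IL1A turned to 0.36 and 0.32 and were not called.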

How the results depend on the processing

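Of the values of single cytokine genes under the alternatives, 635 kept their direction and side of the threshold or moved by less than the spread, 38 lost the call, 17 gained it, 14 moved by more than the spread and 31 changed sign, apart from the fold change of enrichment of IL11, given separately. The cause of these changes was not tested. In input, 3 cytokine genes other than IL11 were called, but none without a filter on dim probes, none with spike-in scaling and 1 by the methods' t-test. Leaving out 1 array gave from 0 to 3 calls in input (0 without miR-634 input array 1 or either miR-NC input array), while the calls over all genes dropped from 2602 to between 943 and 1152 when an input array was left out. It gave 4 to 5 calls in RIP, 5 to 6 in each enrichment and 3 to 4 in its fold change. The methods name a t-test for statistics in general, whereas for RIP-chip enrichment they give a fold cutoff without a test. Applied here, the t-test gave 3 calls in RIP and 0 in the fold change of enrichment. It also gave 0 in the enrichment of either kind of cell. There it called almost no gene (6 and 0 over all genes), so that 0 cannot speak to the cytokine genes. At an unadjusted p under 0.05 the t-test gave 2 in input and 4 in RIP. For the enrichment it then gave 4 with miR-NC and 3 with miR-634, and 3 in the fold change. Over all genes, the input calls (2602 by limma) were 1729 with the percentile over all probes, 940 without a filter, 786 with spike-in scaling and 404 by the methods' t-test, which called 5503 genes in RIP (8483 by limma), 6 in the enrichment in miR-NC cells (8641), 0 in that in miR-634 cells (9252; 5937 at an unadjusted p under 0.05) and 5239 in the fold change (7809). Without a filter, limma called 14254 genes in RIP, 15674 and 15378 in the enrichments and 11950 in the fold change (7809 with it). With the replicate number as a block, the counts were 3 in input, 5 in RIP, 5 in each enrichment and 3 in its fold change, as without the block, and same-numbered arrays did not deviate together (correlations from -0.04 to 0.08), so the numbers do not pair the arrays.

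With spike-in scaling, the input change turned to -0.19 for CXCL2, -0.11 for IL1B and -0.16 for IL18, and the RIP change to 0.16 for CXCL2, 0.49 for IL1A and 0.86 for IL18. The enrichment in miR-NC cells turned to -2.09 for IL11, -2.21 for LIF, -1.18 for CXCL2 and -1.27 for IL1A, and that in miR-634 cells to -1.07 for IL11, -0.61 for LIF, -0.82 for CXCL2, -0.96 for IL1A and -0.46 for IL1B. Its fold change turned to 1.02 for IL11, 0.87 for CXCL1, 0.36 for CXCL2, 0.32 for IL1A and 1.02 for IL18. The IL11 fold change of enrichment (-0.07) was also 0.0435 with the percentile over all probes, 0.0439 with the authors' values, 0.106 with normexp and quantile normalization, 0.0228 with quantile normalization alone and from -0.22 to 0.0731 with 1 array left out. The remaining sign changes were the IL18 RIP change (0.17 with the percentile over all probes, 0.17 with the authors' values, 0.0458 with median scaling, 0.0349 with quantile normalization and from -0.0424 to 0.0333 with 1 array left out), the IL18 fold change of enrichment (0.0479 with the percentile over all probes and 0.0483 with the authors' values) and the IL18 input change (-0.0027 with normexp and quantile normalization, and from -0.0036 to 0.134 with 1 array left out). The CXCL2 input change ran from -0.0403 to 0.113 and the IL1B enrichment in miR-NC cells from -1.09 to 0.53 with 1 array left out. Input and RIP arrays lay in different rows of the slide, which cannot be told apart from the kind of RNA.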
